A study of Mus musculus with 36 samples.

Results

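Alveolar macrophages (AΦ) and monocytes are told apart by a small set of transcription factors, and 9 genes for such factors were followed here through all 36 libraries of the study: Pparg, Bhlhe40, Bhlhe41, Cebpb, Cebpa, Maf, Spi1, Klf4 and Irf8. They were chosen by symbol, each matched 1 row of the table of 27562 genes, and all 9 passed the filter on low values in every model. The libraries were made from cells sorted out of the lungs of C57BL/6 mice. The host mice were male C57BL/6J animals (CD45.2) that were irradiated with the chest shielded, given busulfan and transplanted with marrow of B6.SJL-Ptprc a Pepc b/BoyJ donors (CD45.1), so that every group, controls included, shared this treatment. The mice then breathed filtered air (FA) or concentrated ambient particles (PM2.5) for 4-weeks or 32-weeks. The AΦ gate asked for CD64 with high CD11c (Itgax) and low CD11b, and the monocyte gate for low CD64 and high CD11b without Ly6G or MHC II. CD45.2 AΦ are called tissue-resident (TR-AΦ) and CD45.1 AΦ bone marrow-derived (BM-AΦ), and this naming rests on the congenic marker alone. At 4-weeks the 4 groups were TR-AΦ and CD45.2 monocytes under FA or PM2.5. At 32-weeks the 8 groups were TR-AΦ, BM-AΦ, CD45.2 monocytes and CD45.1 monocytes under each air. The labels tell the monocyte sorts of 32-weeks apart by a number alone. That number was taken to carry the same meaning as for AΦ, where it stands for the congenic marker. Each of the 12 groups held 3 libraries. By the study's description 3 mice were drawn for sequencing per exposure and time, so the sorted populations of an exposure and time may share mice, but no source used here ties a library's number to a mouse. The fits treat libraries as independent, and p-values measure the spread between these libraries.

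As background, monocytes that enter the alveolus become AΦ under granulocyte-macrophage colony-stimulating factor and transforming growth factor beta, and both signals lead to Pparg, the nuclear receptor that switches on lipid uptake and storage for surfactant handling. Bhlhe40 and Bhlhe41 are related basic helix-loop-helix repressors of the E-box that maintain AΦ number and self-renewal. Cebpa and Cebpb are C/EBP factors of the myeloid lineage, and Spi1 encodes PU.1, the factor on which all myeloid cells depend. Maf restrains macrophage self-renewal and is high in interstitial and other tissue macrophages but low in AΦ. Klf4 promotes monocyte differentiation, and Irf8 directs monocytic and dendritic fates.

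The values were FPKM, sequenced fragments scaled by transcript length and by library, so that levels can be set side by side between genes. Their sum over genes was 1.84e+06 to 3.34e+06 per library and the depth in reads is unknown, so each statement rests on the spread between libraries. A difference below is a difference of mean log2(FPKM + 1), tested in limma over the genes that averaged 1 FPKM or more, and a gene passed at an adjusted p under 0.05. The sorts carried their markers: the 12 AΦ markers (among them Siglecf, Marco, Car4 and the gated Itgax) summed to 5902 to 12889 FPKM in AΦ and to 139 to 1565 FPKM in monocytes, and all 12 were higher in AΦ in each of 3 comparisons with monocytes. Markers of other cells were present to a varying degree. The 6 interstitial macrophage markers (C1qa, C1qb, C1qc, Cd163, Folr2, Lyve1) summed to 858 to 3290 FPKM in CD45.2 monocytes and 308 to 1022 FPKM in CD45.1 monocytes at 32-weeks, against 2.85 to 406 FPKM in CD45.2 monocytes at 4-weeks. In bulk libraries such as these, fewer cells of a type and less RNA per cell cannot be told apart.

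The genes lie on 5 autosomes of mm10, by the GENCODE M21 models. Pparg spans chr6:115360951-115490399 (plus strand), Bhlhe40 chr6:108660629-108666925 (plus) and Bhlhe41 chr6:145858243-145865558 (minus). Cebpa spans chr7:35119293-35121928 and Cebpb chr2:167688915-167690418, both on the plus strand. Maf spans chr8:115682942-115707794 (minus), Irf8 chr8:120736358-120756694 (plus), Spi1 chr2:91082390-91115756 (plus) and Klf4 chr4:55527143-55532466 (minus). The authors' table set Irf8 in a locus of 4435363 bases that 114 of its rows shared, and the loci of Bhlhe40, Bhlhe41, Cebpa and Maf were shared by 2 or 3 rows, so reads of overlapping transcripts may have been divided among them. The effect of this on the FPKM was not tested.

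RefSeq promoters (GRCm38.p6, 250 bases before to 50 after the start) matched 6 of the 9 genes with 9 sequences. The letters CACGTG, the E-box that Bhlhe40 and Bhlhe41 bind as a class, were searched on both strands and occurred once in the promoter of Bhlhe41, a gene higher in AΦ, and once in that of Klf4, a gene higher in monocytes. They occurred in none of the other 7, and 7.15% of all 32851 promoters held them. Both stretches are shown because they hold this E-box, and both begin at position -250 of the RefSeq start on the minus strand, chr6:145865561-145865670 for Bhlhe41 and chr4:55532616-55532725 for Klf4, with the E-box in capitals at -153 and -182.
Bhlhe41: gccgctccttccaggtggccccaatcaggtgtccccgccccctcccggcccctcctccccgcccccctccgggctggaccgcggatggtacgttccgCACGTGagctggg
Klf4: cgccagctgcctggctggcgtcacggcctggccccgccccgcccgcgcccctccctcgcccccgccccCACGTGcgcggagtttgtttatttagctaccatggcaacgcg
The nuclear receptor half-site AGGTCA occurred in 2 of the 3 Pparg promoters and in no other promoter of the set, against 16.3% of all promoters. The other motifs searched, again on both strands, were GAGGAA (PU.1 core, in 1 of the 9 sequences and 28.3% of all), TGCTGA (Maf half-site, 1 and 19.5%), CACCC (Klf box, 5 and 57.5%) and TTGCGCAA (C/EBP palindrome, 0 and 0.183%). A match is a description of letters, and no binding was measured.

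Before any comparison, the genes ranked very differently in abundance. Cebpb was the most abundant of the 9, at a mean of 1651 ± 521 FPKM (SD, n = 18) in AΦ and 1841 ± 761 FPKM (SD, n = 18) in monocytes, rank 153 and rank 174 of 27562 genes. Bhlhe40 (rank 472 in AΦ), Cebpa (578), Klf4 (905) and Spi1 (978) followed in AΦ. Pparg stood at rank 1299 in AΦ and 4236 in monocytes, and Bhlhe41 at rank 2295 in AΦ and 11581 in monocytes. Maf reversed this order, at rank 11071 in AΦ and 2872 in monocytes. Spi1 varied least: its coefficient of variation was 9.45% over the 18 AΦ libraries and 17.0% over the 18 monocyte libraries, whereas that of Pparg was 14.7% and 87.6%.

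**Figure D1:**
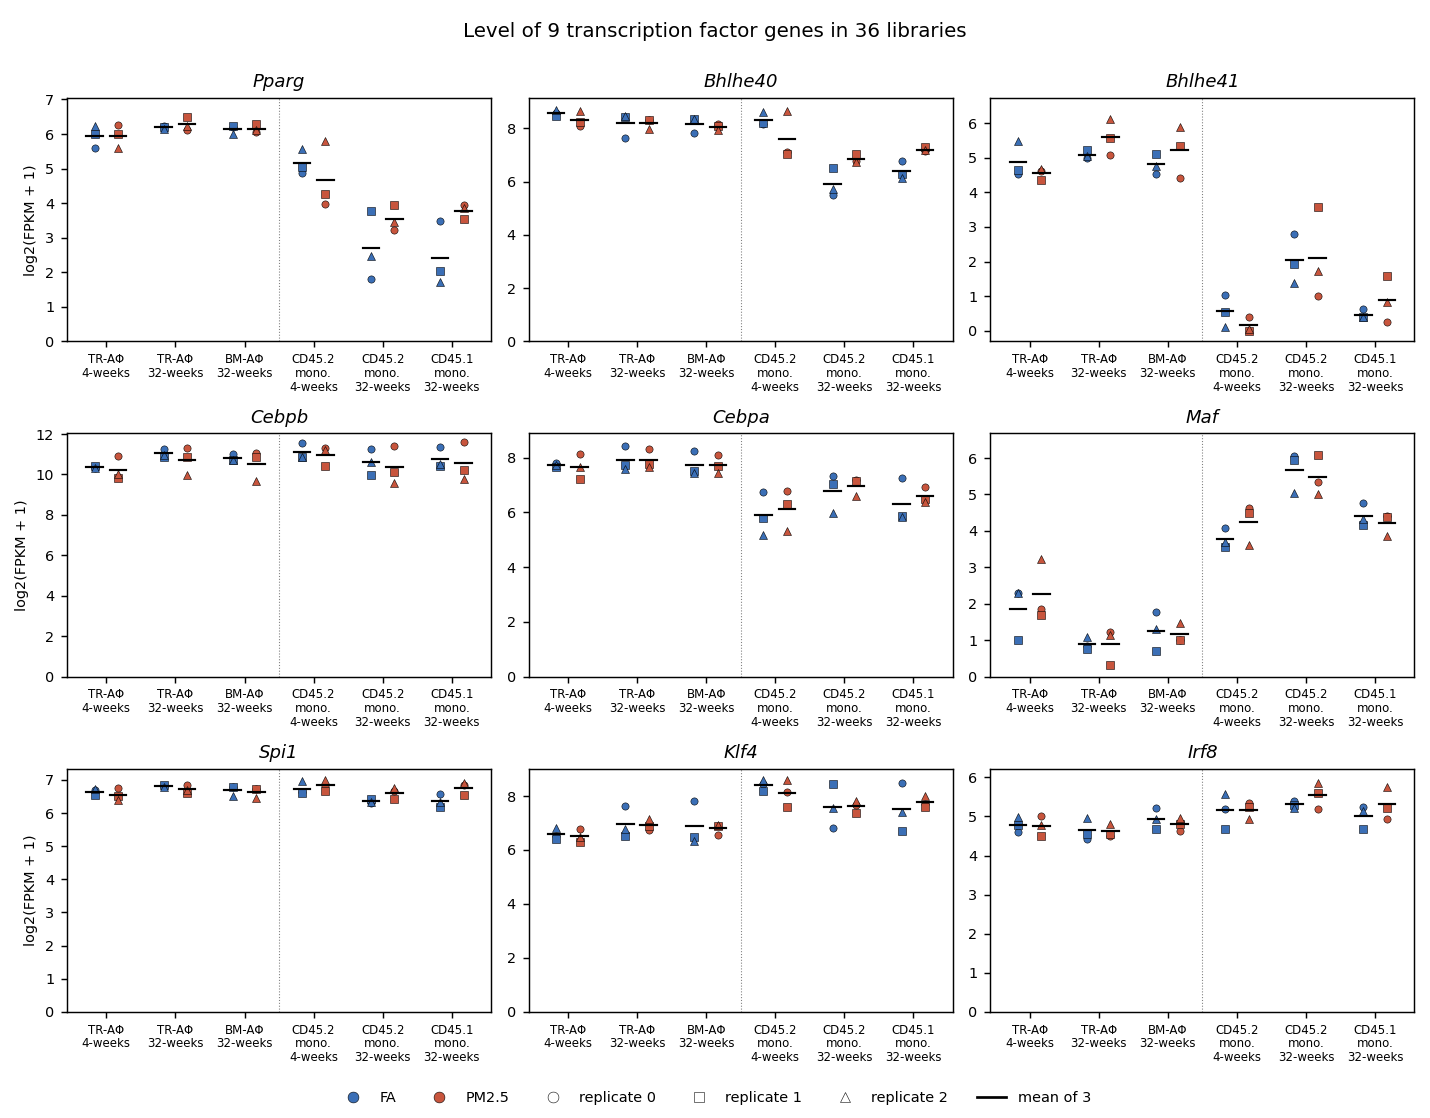
Level of each gene in every library, as log2(FPKM + 1), over 6 populations with FA in blue and PM2.5 in red. Each point is 1 library, its shape the replicate number and the bar the mean of 3. Bhlhe41 and Maf separated all AΦ from all monocyte libraries in opposite directions, and Spi1 lay between 71.5 and 127 FPKM throughout.

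AΦ and monocytes were compared 3 times, each within its time and origin: TR-AΦ against CD45.2 monocytes at 4-weeks, TR-AΦ against CD45.2 monocytes at 32-weeks, and BM-AΦ against CD45.1 monocytes at 32-weeks. Pparg, Bhlhe41 and Cebpa passed as higher in AΦ in all 3 and Maf as lower in all 3, with 4 further genes called in 1 or 2 of them and Cebpb in none. Of the 9 genes, 5 passed at 4-weeks (3 higher, 2 lower), 7 in CD45.2 cells at 32-weeks (5 higher, 2 lower) and 6 in CD45.1 cells (4 higher, 2 lower). Of all genes tested, 48.2%, 47.3% and 50.9% passed in these comparisons. The shares higher in AΦ were 22.6%, 23.6% and 27.1%, and those lower were 25.5%, 23.7% and 23.8%. With about every other gene of the table passing, a count over 9 genes says little by itself, and the values of each gene follow. The median difference of the 9 genes was -0.19, 0.39 and 0.10, beside -0.02, 0 and 0.03 over all genes.

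Pparg, the receptor itself, was at 47.0, 63.2 and 76.0 FPKM (lowest, median and highest of 6) in TR-AΦ at 4-weeks, at 67.8, 73.9 and 89.4 FPKM in TR-AΦ at 32-weeks and at 63.1, 70.5 and 76.8 FPKM in BM-AΦ. CD45.2 monocytes held 14.6, 30.1 and 54.5 FPKM at 4-weeks, 2.48, 9.17 and 14.3 FPKM at 32-weeks, and CD45.1 monocytes 2.31, 10.3 and 14.6 FPKM. At 32-weeks no AΦ library overlapped a monocyte library, whereas at 4-weeks the highest monocyte library exceeded the lowest AΦ library. The difference was 1.03 ± 0.30 (SE) at 4-weeks (adjusted p = 0.00547), 3.13 ± 0.30 in CD45.2 cells at 32-weeks (adjusted p = 1.44e-09) and 3.05 ± 0.30 in CD45.1 cells (adjusted p = 2.32e-09). The 4-weeks call of Pparg was lost without all libraries numbered 0 (0.79, adjusted p = 0.0542) or 1 (0.87, adjusted p = 0.0987).

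Bhlhe41 was low in monocytes at 4-weeks and in CD45.1 monocytes, and higher in CD45.2 monocytes of 32-weeks. TR-AΦ held 19.7, 23.7 and 43.5 FPKM at 4-weeks and 30.8, 34.6 and 68.3 FPKM at 32-weeks (lowest, median and highest of 6), and BM-AΦ 20.2, 30.0 and 58.9 FPKM. CD45.1 monocytes were at 0.199, 0.431 and 2.0 FPKM and CD45.2 monocytes of 32-weeks at 1.02, 2.57 and 10.9 FPKM. The CD45.2 monocytes of 4-weeks were at 1.04, 0.470 and 0.0762 FPKM under FA and at 0.318 and 0.0456 FPKM in 2 libraries under PM2.5, and the gene was listed at 0 in the third. No monocyte library reached the lowest AΦ library. The monocyte library with 10.9 FPKM, PM2.5 CD45.2 replicate 1 of 32-weeks, also had the highest sum of AΦ markers among monocytes, 1565 FPKM, and their part in its Bhlhe41 level was not tested. The difference was 4.36 ± 0.33 (SE) at 4-weeks (adjusted p = 1.44e-11), 3.27 ± 0.33 in CD45.2 cells at 32-weeks (adjusted p = 3.87e-09) and 4.33 ± 0.33 in CD45.1 cells (adjusted p = 1.85e-11). On the log2(FPKM + 1) scale these values understate low levels, and with 0.1 added in place of 1 the 4-weeks difference of Bhlhe41 was 6.41.

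Its relative Bhlhe40 was abundant in both cell types and behaved differently in monocytes. TR-AΦ held 267.8, 362 and 406 FPKM at 4-weeks and 200.2, 314 and 353 FPKM at 32-weeks, and BM-AΦ 226, 278 and 326 FPKM. CD45.2 monocytes of 4-weeks overlapped this range, at 129, 286 and 404 FPKM, whereas at 32-weeks CD45.2 monocytes were at 43.5, 97.0 and 131 FPKM and CD45.1 monocytes at 68.8, 124 and 155 FPKM. The groups overlapped at 4-weeks and did not overlap at 32-weeks. Bhlhe40 was higher in AΦ by 1.82 ± 0.22 (SE, adjusted p = 1.09e-07) in CD45.2 cells and by 1.32 ± 0.22 (adjusted p = 1.53e-05) in CD45.1 cells at 32-weeks. At 4-weeks the difference was 0.48 (95% interval 0.03 to 0.94, adjusted p = 0.0765), and it passed without PM2.5 monocyte replicate 2 (0.75, adjusted p = 0.00115), with quantile normalization (0.90, adjusted p = 0.00455) and with libraries rescaled to the same sum (0.80, adjusted p = 0.0115).

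Of the C/EBP factors, Cebpa was at 146 to 340.4 FPKM in all 18 AΦ libraries, with medians of 204, 212 and 192 FPKM in TR-AΦ at 4-weeks, TR-AΦ at 32-weeks and BM-AΦ. Monocytes held 35.0, 66.7 and 108 FPKM at 4-weeks (lowest, median and highest of 6), and 61.6, 134 and 161 FPKM (CD45.2) or 55.7, 85.4 and 151 FPKM (CD45.1) at 32-weeks. The groups did not overlap in any of the 3 comparisons. Cebpa was higher in AΦ by 1.68 ± 0.30 (SE, adjusted p = 3.24e-05) at 4-weeks, 1.04 ± 0.30 (adjusted p = 0.00515) in CD45.2 cells and 1.27 ± 0.30 (adjusted p = 0.00079) in CD45.1 cells. Without all libraries numbered 1 both 32-weeks calls of Cebpa were lost (adjusted p = 0.0507 and 0.0536). Cebpb did not pass in any: its difference was -0.74 (95% interval -1.43 to -0.04, adjusted p = 0.0749) at 4-weeks, 0.39 (-0.30 to 1.09) and 0.03 (-0.67 to 0.72) at 32-weeks. Without PM2.5 TR-AΦ replicate 0 or PM2.5 monocyte replicate 1 the 4-weeks difference of Cebpb passed (adjusted p = 0.0389 and 0.0454). It also passed with the replicate number as a block (-0.74 ± 0.17, adjusted p = 0.00109), and was smaller with quantile normalization (-0.23, adjusted p = 0.622) or rescaling (-0.41, adjusted p = 0.335).

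Maf ran the other way. TR-AΦ held 1.02, 3.25 and 8.38 FPKM at 4-weeks (lowest, median and highest of 6) and 0.259, 0.954 and 1.35 FPKM at 32-weeks, and BM-AΦ 0.626, 1.24 and 2.39 FPKM. CD45.2 monocytes were at 10.7, 13.9 and 23.9 FPKM at 4-weeks and 31.5, 50.2 and 67.0 FPKM at 32-weeks, and CD45.1 monocytes at 13.4, 19.4 and 26.1 FPKM. No AΦ library reached the lowest monocyte library. Maf was lower in AΦ at 4-weeks by a log2 difference of -1.95 ± 0.28 (SE, adjusted p = 1.76e-06), in CD45.2 cells at 32-weeks of -4.69 ± 0.28 (adjusted p = 2.12e-13) and in CD45.1 cells of -3.10 ± 0.28 (adjusted p = 5.95e-10).

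Klf4, Irf8 and Spi1 differed less. Klf4 was at 77.8, 90.3 and 111 FPKM in TR-AΦ and 193, 319 and 386 FPKM in monocytes at 4-weeks, without overlap, and was lower in AΦ by a log2 difference of -1.70 ± 0.28 (SE, adjusted p = 1.43e-05). At 32-weeks its groups overlapped, with medians of 114 and 195 FPKM in CD45.2 AΦ and monocytes and 106 and 199 FPKM in CD45.1 cells. The difference was -0.67 (95% interval -1.25 to -0.08, adjusted p = 0.0562) in CD45.2 cells and -0.81 (-1.40 to -0.23, adjusted p = 0.0192) in CD45.1 cells. The former passed without FA replicate 0 of the TR-AΦ or of the CD45.2 monocytes (adjusted p = 0.0224 and 0.0146). The call in CD45.1 cells was lost without FA BM-AΦ replicate 1 or 2 or FA CD45.1 monocyte replicate 0 (adjusted p = 0.0542, 0.0643 and 0.0843), and with every library rescaled to the same sum (-0.41, adjusted p = 0.257).

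Irf8 medians lay between 22.3 and 28.4 FPKM in the 3 AΦ populations and between 35.2 and 39.7 FPKM in the 3 monocyte populations. In CD45.2 cells at 32-weeks the groups did not overlap, at 20.6 to 29.9 FPKM against 35.8 to 56.7 FPKM, and Irf8 was lower in AΦ by a log2 difference of -0.80 ± 0.16 (SE, adjusted p = 0.000172). The difference was -0.39 (95% interval -0.72 to -0.05, adjusted p = 0.0504) at 4-weeks and -0.29 (-0.63 to 0.04, adjusted p = 0.133) in CD45.1 cells. The 4-weeks value of Irf8 passed without any of FA TR-AΦ replicate 2, PM2.5 TR-AΦ replicate 0, FA monocyte replicate 1 or PM2.5 monocyte replicate 2 (adjusted p from 0.0109 to 0.0391). It was -0.16 (adjusted p = 0.434) with quantile normalization and -0.07 (adjusted p = 0.815) with rescaling, which also turned the Irf8 difference in CD45.1 cells to 0.09. Spi1 medians lay between 84.5 and 110.1 FPKM in all 6 populations, and neighbours in their order overlapped throughout. Spi1 was higher in TR-AΦ than in CD45.2 monocytes at 32-weeks by 0.28 ± 0.10 (SE, adjusted p = 0.0235), a call lost without PM2.5 TR-AΦ replicate 0 or PM2.5 CD45.2 monocyte replicate 1 (adjusted p = 0.0633 and 0.0763) or with quantile normalization (adjusted p = 0.0856), and 0.45 when rescaled. At 4-weeks the Spi1 difference was -0.19 (95% interval -0.39 to 0.02) and turned to 0.13 with libraries rescaled to the same sum. In CD45.1 cells the Spi1 difference was 0.10 (-0.11 to 0.31, adjusted p = 0.428), and it passed when rescaled (0.49, adjusted p = 0.00487).

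**Figure D2:**
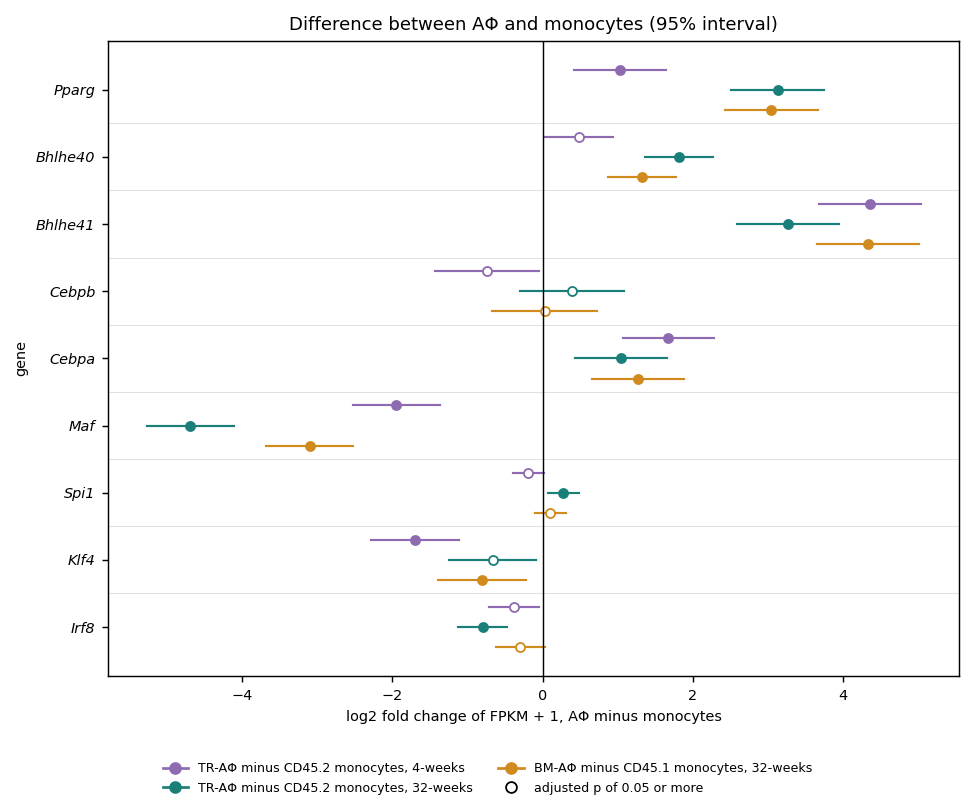
Difference between AΦ and monocytes for each gene, as log2 fold change of FPKM + 1 with its 95% interval, in 3 comparisons. Filled points passed at an adjusted p under 0.05. Bhlhe41 lay at 3.27 to 4.36 and Maf at -4.69 to -1.95, while the intervals of Cebpb at 32-weeks spanned 0.

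Genes around these factors were counted by lists. Of the 9 lipid genes known as Pparg targets, 8 were higher in TR-AΦ than in CD45.2 monocytes at 32-weeks, led by the lipid droplet gene Cidec (log2 difference 5.32), the lipase inhibitor gene Angptl4 (4.33) and the lipoprotein lipase gene Lpl (4.01). In BM-AΦ against CD45.1 monocytes 8 of 9 were higher, and at 4-weeks 7 were higher and Cd36, a fatty acid receptor gene named after its value was seen, was lower (-0.73, adjusted p = 0.0476). Their median differences were 3.28 at 4-weeks, 3.75 in CD45.2 and 4.01 in CD45.1 cells at 32-weeks. Of 6 upstream receptor genes, 5 were higher in AΦ at 32-weeks in either origin and 1 was lower: Csf1r, the receptor of macrophage colony-stimulating factor, differed by -2.95 in CD45.2 cells, against 1.29 for Csf2rb2, a receptor chain for interleukin-3, and 1.04 for Tgfbr2, a chain of the transforming growth factor beta receptor.

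Of 22 family members and partners of the 9 factors, 19 could be tested between AΦ and monocytes. In CD45.2 cells at 32-weeks 15 passed, 3 higher and 12 lower in AΦ, with a list median of -0.81. The interferon regulators Irf7 and Irf5 differed by -4.34 and -2.44. At 4-weeks the count was again 15 (3 higher, 12 lower), and in CD45.1 cells it was 17 (4 higher, 13 lower). All these counts stand against the 47.3%, 48.2% and 50.9% of all genes that passed.

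The size of the difference between AΦ and monocytes was itself compared between times in CD45.2 cells, where 7.88% of all genes passed and 4 of the 9 genes did. The difference at 32-weeks minus that at 4-weeks was 2.10 ± 0.42 (SE, adjusted p = 0.00193) for Pparg, 1.34 ± 0.31 (adjusted p = 0.00696) for Bhlhe40, -2.74 ± 0.40 (adjusted p = 7.37e-05) for Maf and 0.47 ± 0.14 (adjusted p = 0.0398) for Spi1. The median was 0.47 over the 9 genes and 0.04 over all genes. The Bhlhe40 change was 1.18 with libraries rescaled (adjusted p = 0.0547) and 1.01 with quantile normalization (adjusted p = 0.0930), past the threshold in neither. The Spi1 change was 0.32 (adjusted p = 0.465) and 0.12 (adjusted p = 0.754). Without all libraries numbered 2 the Pparg change did not pass (1.65, adjusted p = 0.0829). That of Bhlhe40 did not pass without number 0, 1 or 2 (adjusted p = 0.0612, 0.0928 and 0.0783). Cebpb, at 1.13 (95% interval 0.15 to 2.11, adjusted p = 0.167), passed with the replicate number as a block (adjusted p = 0.0250). The Spi1 call was lost without any of 14 of the 24 libraries, with adjusted p up to 0.0890. At 4-weeks these were FA TR-AΦ replicates 0 and 1, PM2.5 TR-AΦ replicates 1 and 2, FA monocyte replicate 2 and PM2.5 monocyte replicates 0 and 2. At 32-weeks they were all 3 FA TR-AΦ, PM2.5 TR-AΦ replicates 0 and 2, FA monocyte replicate 0 and PM2.5 monocyte replicate 1. Klf4 did not pass (1.03, 95% interval 0.21 to 1.86, adjusted p = 0.125) but did without FA CD45.2 monocyte replicate 1 of 32-weeks (adjusted p = 0.0465). Bhlhe41, at -1.09 (-2.05 to -0.13, adjusted p = 0.172), passed only with 0.1 added in place of 1 among the alternatives.

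Each side of this gap was then compared on its own. CD45.2 monocytes of 32-weeks and 4-weeks differed in 4 of the 9 genes, where 14.9% of all genes passed (7.06% higher and 7.83% lower at 32-weeks). Pparg fell from a median of 30.1 to 9.17 FPKM, without overlap, by 1.80 ± 0.39 (SE) on the log2 scale (adjusted p = 0.00634). Bhlhe40 fell from 286 to 97.0 FPKM (log2 difference -1.58 ± 0.26, adjusted p = 0.00131), with 1 library of each time crossing. Maf rose from 13.9 to 50.2 FPKM, without overlap, by 1.57 ± 0.25 (adjusted p = 0.000886), and Bhlhe41 rose from 0.197 to 2.57 FPKM, with overlap, by 1.71 ± 0.39 (adjusted p = 0.00919). Bhlhe41 passed the filter of this model only through the CD45.2 monocytes of 32-weeks, with a mean of 4.10 FPKM. The means were 0.325 FPKM in CD45.2 monocytes of 4-weeks and 0.689 FPKM in CD45.1 monocytes. Its test therefore rests on the group that was called higher. The Bhlhe41 change was 3.38 with 0.1 added in place of 1 and 1.12 with libraries rescaled, and passed in both. It was lost without all libraries numbered 1 (adjusted p = 0.127) or 2 (adjusted p = 0.0909). The Pparg call was lost without number 2 (-1.35, adjusted p = 0.119) and the Maf call without number 1 (1.36, adjusted p = 0.0609). Cebpa (0.85, 95% interval 0.10 to 1.61) and Spi1 (-0.30, -0.56 to -0.05) did not pass, and the median over the 9 genes was -0.30 against -0.05 over all genes. The 2 times were different mice, so length of exposure, age and time since transplantation cannot be told apart. Nor can these be told from any difference in sorting, library preparation or sequencing between the times.

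Marker levels moved with these genes in the same comparison. All 6 interstitial macrophage markers rose from 4-weeks to 32-weeks in CD45.2 monocytes (median 4.44, with Cd163 at 4.63 and C1qc at 4.59, named after their values were seen), 7 of 9 tested AΦ markers rose (median 1.85), and 5 of 7 non-classical monocyte markers fell (median -1.61). The summed non-classical markers were at 2277 to 4115 FPKM at 4-weeks and 634 to 1647 FPKM at 32-weeks in CD45.2 monocytes, and at 838 to 2007 FPKM in CD45.1 monocytes. The summed neutrophil markers reached 343 and 1049.6 FPKM in replicate 2 of the FA and PM2.5 monocytes of 4-weeks and at most 74.2 FPKM in the monocytes of 32-weeks. The part of other cells in the differences of Pparg, Bhlhe40, Bhlhe41 and Maf was not tested.

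Within monocytes, the log2 levels of Pparg and Bhlhe40 went together over the 6 libraries of 4-weeks (Pearson's r = 0.96, Spearman's rho = 0.94, and r = 0.96 without the 2 libraries farthest from the median of Pparg). At 32-weeks r was 0.95 (rho 0.77) in CD45.1 and 0.92 (rho 0.77) in CD45.2 monocytes, 6 libraries each, and without the 2 farthest libraries it was 0.42 and 0.21, so that the relation rests on those libraries. Pparg and the summed non-classical monocyte markers gave r = 0.94 at 4-weeks (rho 0.89, 0.97 without 2) and 0.96 in CD45.1 monocytes (rho 0.89, 0.93 without 2). In CD45.2 monocytes of 32-weeks r was 0.78 (rho 0.49) and turned to -0.84 without 2, so no relation held there. In the 6 TR-AΦ libraries of 4-weeks Pparg and Bhlhe40 gave r = -0.52 (rho -0.43, -0.07 without 2).

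Maf and the summed interstitial macrophage markers gave r = 0.97 (rho 0.94, 0.91 without 2) in CD45.2 and 0.80 (rho 0.94, 0.65 without 2) in CD45.1 monocytes of 32-weeks, and 0.60 (rho 0.37, 0.51 without 2) in monocytes of 4-weeks. In TR-AΦ of 4-weeks the same pair gave r = 0.97 (rho 0.94, 0.77 without 2). Each of these values describes 6 libraries, or 4 without the 2 farthest, that share a sort and both exposures.

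**Figure D3:**
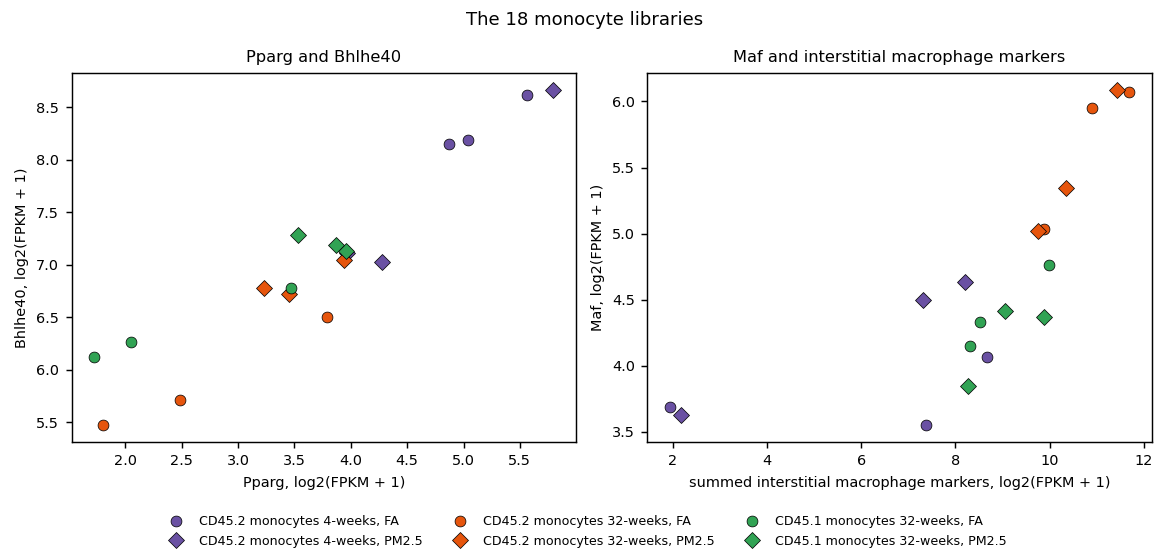
The 18 monocyte libraries by Pparg and Bhlhe40 (left) and by the summed FPKM of 6 interstitial macrophage markers and Maf (right), all as log2(FPKM + 1), coloured by population with FA as circles and PM2.5 as diamonds. The 6 libraries of 4-weeks have the highest Pparg, and the CD45.2 monocytes of 32-weeks have the highest Maf, at 31.5 to 67.0 FPKM.

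In TR-AΦ fewer genes passed between times. Of all genes 5.91% passed (2.56% higher, 3.35% lower at 32-weeks), and of the 9 only Maf did, falling from a median of 3.25 to 0.954 FPKM with overlapping groups (log2 difference -1.17 ± 0.31, adjusted p = 0.0430, and -1.79 with 0.1 added in place of 1). Under leave-one-out this call was lost for 9 of 12 libraries, with adjusted p up to 0.101 (without FA TR-AΦ replicate 0 of 4-weeks). It was kept only without FA replicate 1, PM2.5 replicate 0 or PM2.5 replicate 1 of 4-weeks. The highest Maf library, PM2.5 TR-AΦ replicate 2 of 4-weeks at 8.38 FPKM, also had the highest interstitial marker sum of all AΦ, 569 FPKM against 18.4 to 314 FPKM in the others, and without it the difference was -0.93 (adjusted p = 0.0840). Pparg (0.29, 95% interval 0.02 to 0.57), Bhlhe41 (0.62, 0.10 to 1.15) and Cebpb (0.59, 0.01 to 1.17) were at unadjusted p of 0.0379, 0.0240 and 0.0481 and did not pass. The median over the 9 genes was 0.21 beside 0.03 over all genes.

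Around them in the TR-AΦ, 2 of 9 lipid genes rose from 4-weeks to 32-weeks: Pdk4, which restrains glucose oxidation, by 1.92 and Abcg1, a cholesterol exporter gene, by 0.45. Of the upstream receptors Tgfbr2 rose by 0.54 and Csf1r fell by 0.57 on the log2 scale, and of 18 family members tested Irf1 fell by 2.16 and Maff by 0.94. Among 10 immediate early genes 4 fell, led by Egr1 (-2.76), Ier2 (-1.71) and Zfp36 (-1.04). Of the AΦ markers 3 of 12 rose, Ear1 by 0.70, Siglec1 by 0.67 and Atp6v0d2 by 0.63.

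The 2 origins of AΦ at 32-weeks were compared next. No gene of the 9 passed between BM-AΦ and TR-AΦ in limma, none had an unadjusted p under 0.05, and 0.316% of all genes passed. The differences ran from -0.33 for Bhlhe41 (95% interval -0.86 to 0.20) to 0.31 for Maf (-0.35 to 0.98), and that of Pparg was -0.09 (-0.37 to 0.18). The intervals bound Pparg, Spi1 (-0.29 to 0.10) and Bhlhe40 (-0.42 to 0.26) more tightly than Cebpb (-0.79 to 0.38) or Maf. The median was -0.10 over the 9 genes and 0.02 over all genes. None of the 9 lipid genes, 6 receptors and 18 family members tested passed, and of the 12 AΦ markers only Marco did, a scavenger receptor gene that was lower in BM-AΦ (log2 difference -3.78, adjusted p = 0.000932). BM-AΦ carry the genome of the B6.SJL-Ptprc a Pepc b/BoyJ donors and TR-AΦ that of the C57BL/6J hosts. Origin and strain therefore cannot be told apart.

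Between the origins of monocytes at 32-weeks 0.669% of all genes passed, and of the 9 only Maf, which was lower in CD45.1 monocytes (13.4 to 26.1 FPKM) than in CD45.2 monocytes (31.5 to 67.0 FPKM), without overlap (log2 difference -1.27 ± 0.25, adjusted p = 0.0269). Under leave-one-out the call was lost for 8 of 12 libraries, with adjusted p up to 0.0975 (without FA CD45.2 monocyte replicate 0), and kept without FA CD45.1 replicate 0, FA CD45.2 replicate 2 or PM2.5 CD45.2 replicate 0 or 2. Bhlhe41 was 0.431 FPKM in the median of CD45.1 and 2.57 FPKM in CD45.2 monocytes. The difference was -1.39 (95% interval -2.24 to -0.55), with an unadjusted p of 0.00320 and an adjusted p of 0.159. Bhlhe41 passed the filter of this model only through the CD45.2 monocytes of 32-weeks, so this test rests on the group that was higher. The median over the 9 genes was -0.01 and over all genes 0.00. Of the interstitial macrophage markers 3 of 6 were lower in CD45.1 monocytes (Folr2, Cd163, Lyve1) and of the AΦ markers 4 of 9 (Ear1, Atp6v0d2, Plet1, Krt79), named after their values were seen. The part of other cells in the Maf difference was not tested. Origin and strain cannot be told apart in monocytes either.

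The difference between AΦ and monocytes was compared between origins too, and 1.08% of all genes passed. Of the 9 only Maf did, the gap in CD45.1 cells being smaller by 1.59 ± 0.40 (SE, adjusted p = 0.0468), a call that was lost without any of 20 of the 24 libraries (adjusted p up to 0.116, without PM2.5 CD45.2 monocyte replicate 1). It was kept without FA BM-AΦ replicate 1, FA CD45.1 monocyte replicate 0 or replicate 2 of either CD45.2 monocyte group. Bhlhe41 (1.06, 95% interval 0.11 to 2.02) and Irf8 (0.51, 0.04 to 0.98) had unadjusted p of 0.0309 and 0.0361 and did not pass.

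PM2.5 was compared with FA in each of the 6 populations, and none of the 9 genes passed in any. The shares of all genes that passed were 0.00790% in TR-AΦ at 4-weeks, 0% in TR-AΦ and 0.0158% in BM-AΦ at 32-weeks, 0.00778% in CD45.2 monocytes at 4-weeks, and 0% in CD45.1 and 0% in CD45.2 monocytes at 32-weeks. Averaged over populations, no gene of the 9 passed either, with 0.00790% of all genes in AΦ and 0.00778% in monocytes. These averages take the CD45.1 and CD45.2 sorts of 32-weeks as independent, although they may share mice. In the 3 AΦ populations no gene of the 9 reached an unadjusted p of 0.05 in limma and the groups overlapped for all 9 (the groups of 5.82%, 5.98% and 6.44% of all genes did not). The PM2.5 effect averaged over AΦ was 0.03 (95% interval -0.19 to 0.26) for Pparg, -0.12 (-0.39 to 0.16) for Bhlhe40, 0.19 (-0.24 to 0.62) for Bhlhe41, -0.02 (-0.38 to 0.35) for Cebpa and 0.11 (-0.44 to 0.65) for Maf.

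Pparg is given here by library. In TR-AΦ at 4-weeks Pparg was at 47.5, 62.9 and 73.6 FPKM under FA and 76.0, 63.5 and 47.0 FPKM under PM2.5, and at 32-weeks at 74.8, 73.3 and 70.0 FPKM under FA and 67.8, 89.4 and 74.5 FPKM under PM2.5. In BM-AΦ it was at 73.0, 74.1 and 63.1 FPKM under FA and 65.5, 76.8 and 68.0 FPKM under PM2.5. The exposures overlapped in each population. The change of the PM2.5 effect from 4-weeks to 32-weeks in TR-AΦ and its difference between BM-AΦ and TR-AΦ passed for none of the 9, with 0.00790% and 0.0158% of all genes passing and none of the 9 at an unadjusted p under 0.05 in limma.

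In monocytes some groups separated. In CD45.1 monocytes Pparg was at 10.1, 3.14 and 2.31 FPKM under FA and 14.6, 10.6 and 13.6 FPKM under PM2.5, and Bhlhe40 at 108, 76.1 and 68.8 FPKM under FA and 139.6, 155 and 144 FPKM under PM2.5. In CD45.2 monocytes of 32-weeks Pparg was at 2.48, 12.8 and 4.58 FPKM under FA and 8.38, 14.3 and 9.96 FPKM under PM2.5, and Bhlhe40 at 43.5, 89.7 and 51.4 FPKM under FA and 109, 131 and 104 FPKM under PM2.5. The groups did not overlap for Pparg and Bhlhe40 in CD45.1 monocytes, as for 8.89% of all genes, and for Bhlhe40 in CD45.2 monocytes, as for 6.39%. The differences were 1.37 (95% interval 0.19 to 2.55) and 0.81 (0.01 to 1.61) in CD45.1 monocytes, and 0.95 (0.15 to 1.75) for Bhlhe40 in CD45.2 monocytes, at unadjusted p of 0.0254, 0.0474 and 0.0230. Their adjusted p were 0.946, 0.946 and 1. The summed non-classical markers of CD45.1 monocytes separated too, at 1649, 838 and 1026 FPKM (FA) and 1910, 1699 and 2007 FPKM (PM2.5). In CD45.2 monocytes of 32-weeks they overlapped, at 634, 1337 and 991 FPKM (FA) and 1508, 1132 and 1647 FPKM (PM2.5). The part of monocyte subsets in the differences of Pparg and Bhlhe40 was not tested.

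At 4-weeks the values lay in the other direction: Bhlhe40 was at 283, 289.5 and 392 FPKM under FA and 137, 129 and 404 FPKM under PM2.5 (difference -0.72, 95% interval -1.52 to 0.08), and Pparg at 28.2, 32.0 and 46.2 FPKM under FA and 14.6, 18.4 and 54.5 FPKM under PM2.5. Both groups overlapped through replicate 2 of PM2.5. That library had 3.53 FPKM of summed interstitial macrophage markers against 158 and 292 FPKM in the other libraries of its group. It also had the 1049.6 FPKM of neutrophil markers given above. Replicate 2 of FA, the highest FA library for both genes, was alike in this. Its interstitial macrophage markers summed to 2.85 FPKM against 406 and 166 FPKM in its group, and its neutrophil markers to 343 FPKM. Both libraries had the highest non-classical monocyte marker sums of their groups, 4115 (PM2.5) and 3926 FPKM (FA). The others held 2432 and 2277 FPKM under PM2.5 and 2863 and 2793 FPKM under FA. Lymphocyte markers summed to 72.1 and 64.9 FPKM in these libraries and to 5.33 to 13.1 FPKM in the others. Classical markers were at 679 FPKM in the PM2.5 library (others 1683 and 2062) and 938 FPKM in the FA library (others 700 and 963). The part of other cells or monocyte subsets was not tested. Over all genes 6.57% did not overlap in this comparison. Spi1 averaged over the 3 monocyte populations was higher under PM2.5 by 0.26 (95% interval 0.05 to 0.46, unadjusted p = 0.0201, adjusted p = 0.935). It was the only gene of the 9 under an unadjusted p of 0.05 there, in an average whose sorts of 32-weeks may share mice. In CD45.1 monocytes alone Spi1 gave 0.41 (0.05 to 0.77).

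**Figure D4:**
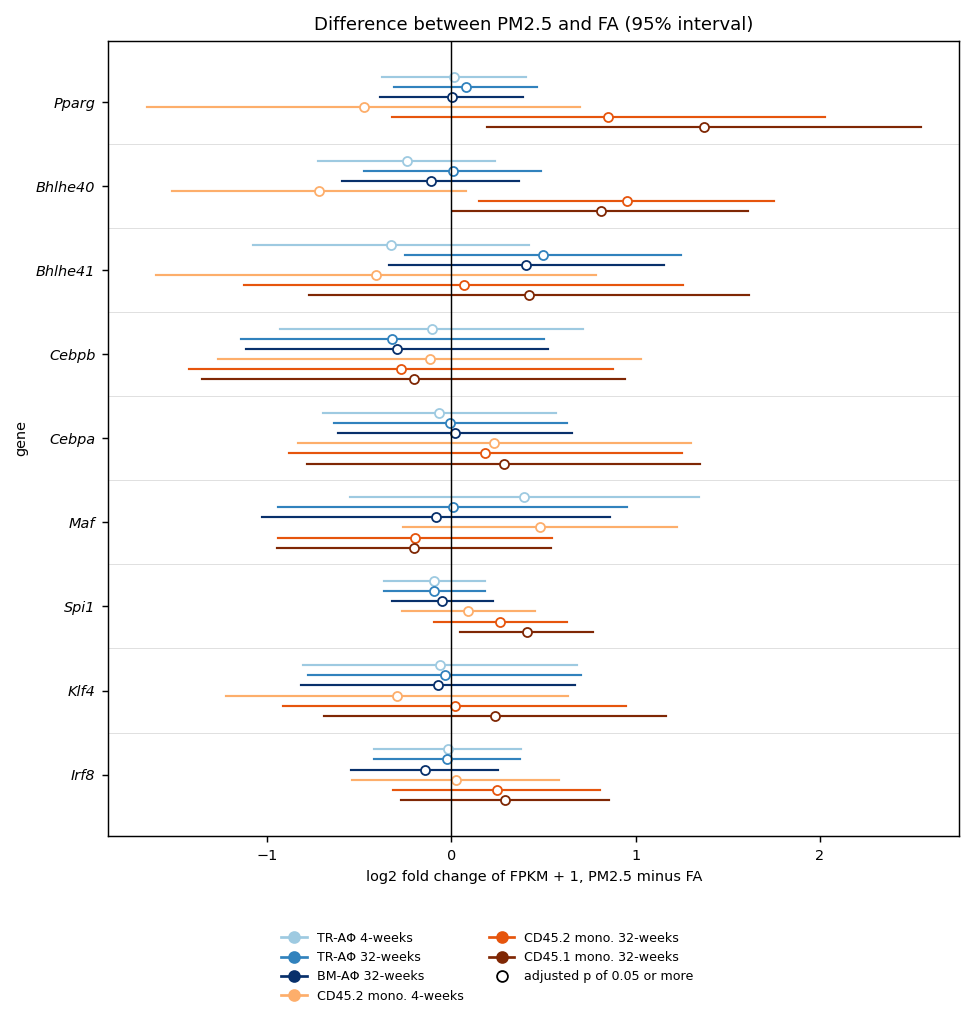
Difference between PM2.5 and FA for each gene in 6 populations, as log2 fold change of FPKM + 1 with its 95% interval. All points are open, since none passed at an adjusted p under 0.05, and the intervals of Spi1 in AΦ are the narrowest, within -0.37 to 0.23.

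Replicate numbers moved most with 2 of the genes. Cebpa was highest in replicate 0 in 12 of 12 groups, by a median of 0.49 over its group mean on the log2 scale, and Cebpb in 11 of 12, by 0.55. The FPKM of replicate 0 libraries also rose with the GC content of transcripts: the rank correlation across genes of each library's deviation with GC was 0.184 to 0.370 in replicate 0, -0.237 to 0.0212 in replicate 1 and -0.282 to -0.104 in replicate 2. The transcripts of Cebpb and Cebpa hold 67.2% and 62.6% GC, above 99.7% and 98.6% of genes. Spi1, at 58.9% GC (above 94.3% of genes), was highest in replicate 0 in 4 of 12 groups, with a median deviation of 0.06. Maf, at 47.4% GC (above 42.4% of genes), was highest there in 8 of 12, with a median deviation of 0.31. Klf4 and Irf8 were each highest in replicate 2 in 7 of 12. Every group holds 1 library of each number, and the part of GC content in these levels was not tested.

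**Figure D5:**
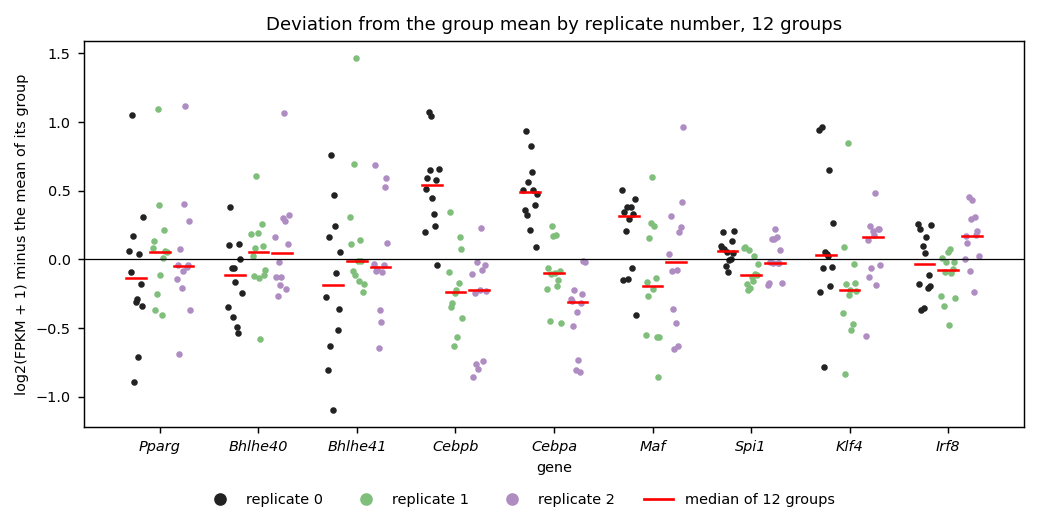
Deviation of each gene from the mean of its group on the log2(FPKM + 1) scale, by replicate number, with 12 groups as points and their median in red. Replicate 0 stands above the others for Cebpb (median 0.55) and Cebpa (0.49).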

How the data were processed

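RNA of sorted AΦ and monocytes was sequenced from 36 libraries in 12 groups (SMART-Seq Stranded mRNA Library Kit). The authors trimmed reads with TrimGalore, aligned them to mm10 with STAR guided by GENCODE, and deposited FPKM per gene from Cufflinks. The FPKM hold no read counts and their depth is unknown. Groups and replicate numbers came from the labels. log2(FPKM + 1) was fitted with limma 3.58.1 (R 4.3.3) with a trend in the variance and 1 mean per group, over genes that averaged 1 FPKM or more: 13307 genes in the model of all libraries, which compared cell types, 12665 in that of AΦ and 12856 in that of monocytes. In each of 15 comparisons and 4 differences between comparisons FA and PM2.5 were weighted equally where both entered, and p-values were adjusted by Benjamini and Hochberg over all genes tested, with a threshold of 0.05 and two-sided tests. Intervals are at 95%. Comparisons that share libraries are not independent.

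The 9 genes and all gene lists were chosen with earlier results of these data known. All 9 were named in each comparison, and of each list the counts and up to 3 genes with the largest differences past the threshold between TR-AΦ and CD45.2 monocytes at 32-weeks, between BM-AΦ and TR-AΦ, or between times in TR-AΦ. For each of the 9, up to 3 genes with the highest correlation over all libraries were also named. The values of 1 gene that this rule selects are not reported here. Alternatives were a pseudocount of 0.1, no filter, quantile normalization, FPKM rescaled to a common sum, the replicate number as a block, only the libraries compared, leaving out each library, and, added after seeing the data, leaving out all libraries of a number. The fits were tested on simulated data. GC content was taken from GENCODE M21 transcripts. Figures were drawn with matplotlib 3.10.9.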

Additional observations from a re-analysis of the deposited data

Results flagged for a closer look

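A difference that changed between times or origins by a test of the change itself was found for 5 results. In CD45.2 cells the AΦ and monocyte difference grew from 4-weeks to 32-weeks by 2.10 for Pparg (from 1.03 to 3.13) and by 1.34 for Bhlhe40 (from 0.48 to 1.82). That of Spi1 changed by 0.47 and turned in sign (from -0.19 to 0.28), and that of Maf changed by -2.74 (from -1.95 to -4.69). At 32-weeks the Maf difference was 1.59 nearer to 0 in CD45.1 cells (-3.10) than in CD45.2 cells (-4.69). Pparg, Bhlhe40 and Maf kept their calls between times with any 1 of 24 libraries left out, whereas the calls of Spi1 and of Maf between origins were lost without 14 and 20 of 24. Without all libraries numbered 2 the Pparg call between times was lost (1.65, adjusted p = 0.0829). That of Bhlhe40 was lost without number 0, 1 or 2 (adjusted p = 0.0612, 0.0928 and 0.0783). The Bhlhe40 change was 1.01 with quantile normalization (adjusted p = 0.0930) and 1.18 with rescaling to a common sum (adjusted p = 0.0547), and its 4-weeks difference was 0.90 and 0.80 there in place of 0.48. The Spi1 change was 0.12 (adjusted p = 0.754) and 0.32 (adjusted p = 0.465). Of the 6 interstitial macrophage markers, 0 differed between AΦ and monocytes at 4-weeks, 6 were lower in AΦ in CD45.2 cells and 2 in CD45.1 cells at 32-weeks, and their part in the Maf values was not tested.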

How the results depend on the processing

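No call of the 9 genes changed direction under any alternative. Over all alternatives 567 of the values called in the main fits stayed called and 102 did not, while 25 of those not called passed. The number of the 9 genes that passed changed by over 1.5 times as follows. For TR-AΦ at 32-weeks against 4-weeks it went from 1 to 0 with no filter, quantile normalization, rescaling to a common sum, only the libraries compared, and without all libraries numbered 0, 1 or 2. For CD45.1 against CD45.2 monocytes it went from 1 to 0 with quantile normalization, the replicate block, only the libraries compared, and without each number. For the AΦ and monocyte difference between origins it went from 1 to 0 with a pseudocount of 0.1, no filter, quantile normalization, the replicate block, and without each number. In these 3 comparisons leave-one-out counts ran from 0 to 1. For the difference between times it went from 4 to 2 with quantile normalization, rescaling, and without number 0 or 1, and to 1 without number 2 (leave-one-out 3 to 5). For CD45.2 monocytes between times it went from 4 to 2 without number 1 or 2. For AΦ against monocytes at 4-weeks it rose with the replicate block, to the count given below. Fewer libraries entered where a number was left out, and otherwise the cause was not tested.

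Rescaling each library to the same sum moved the median difference between AΦ and monocytes over all genes from -0.02 to 0.17 at 4-weeks, from 0 to 0.11 in CD45.2 and from 0.03 to 0.29 in CD45.1 cells at 32-weeks. The share of called genes higher in AΦ then went from 47.0% to 66.6%, 49.9% to 61.6% and 53.2% to 74.7%, and of the 9 genes 4, 5 and 5 were higher and 2, 2 and 1 lower. The calls over all genes in TR-AΦ between times went from 748 to 331, with 43.3% and 18.4% higher, and in CD45.2 monocytes between times the share higher went from 47.4% to 67.7%. For the difference between times that share went from 44.8% to 23.2%.

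Over all genes, the calls between times were 748 in TR-AΦ, against 378 with only the libraries compared, 1308 with the replicate block, 203, 75 and 364 without number 0, 1 and 2, and 416 to 909 under leave-one-out. In CD45.2 monocytes they were 1914, against 825, 409 and 1020 without each number. Between BM-AΦ and TR-AΦ 40 passed, against 62 with no filter, 22 with the block, 78 with only the libraries compared, 23, 17 and 25 without each number, and 15 to 54 under leave-one-out. Between monocyte origins 86 passed, against 149 with no filter, 146 with the block, 22, 23 and 34 without each number, and 45 to 152 under leave-one-out. For the cell type difference 1049 passed between times, against 497, 159 and 648 without each number, and 144 between origins, against 236 with the block, 15, 21 and 59 without each number, and 96 to 223 under leave-one-out. PM2.5 comparisons called 0 to 2 genes, and at most 13 under any alternative.

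With the replicate number as a block, 8 of the 9 genes passed between AΦ and monocytes at 4-weeks against 5, adding Bhlhe40, Cebpb and Irf8 (adjusted p = 0.0259, 0.00109 and 0.00937). Of 29 calls 27 were kept. The calls of Maf between monocyte origins and in the cell type difference between origins were lost (adjusted p = 0.0533 and 0.0611). Irf8 in CD45.1 cells (adjusted p = 0.0403), Cebpb in the difference between times (0.0250) and Cebpa and Spi1 in CD45.2 monocytes between times (0.00628 and 0.0349) were gained. Libraries of the same number, exposure and time correlated in their deviations between -0.0415 and 0.155, with 2 of 42 pairs over 0.1. This was taken as too low to pair them, so the main fits hold no block, although libraries numbered 0 have the relation to GC content given above, which those fits do not model. Correlations over all genes do not show that the number leaves single genes unchanged. Cebpa and Cebpb were highest in replicate 0 in 12 and 11 of 12 groups. Between FA and PM2.5 monocytes of 4-weeks, libraries of the same number correlated at 0.0714 to 0.209, beside a median of -0.0885 for other numbers. With no read counts the FPKM give no depth, which limits the lowest values, Bhlhe41 in monocytes and Maf in AΦ.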

Other observations

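The genes whose pattern over the 36 libraries was most like each factor among 13307 genes were, by Pearson's r of log2(FPKM + 1), Iqgap1 (0.97), Lmo4 (0.97) and Pik3ap1 (0.96) for Pparg, Cd274 (0.96), Rhof (0.94) and Il12rb2 (0.94) for Bhlhe40, and B3gnt7 (0.99), Ahnak2 (0.99) and Enpp1 (0.98) for Bhlhe41. For Cebpa they were Trim47 (0.96), Ptms (0.95) and Ppp1r14b (0.95), for Maf Sh3pxd2a (0.98), Lifr (0.97) and Arap3 (0.97), and for Klf4 its relative Klf2 (0.90), Nectin1 (0.88) and Prkcd (0.87). The nearest genes of Cebpb (Crlf2, 0.85), Irf8 (Swap70, 0.83) and Spi1 (Myl12b, 0.81) lay further off. All these values are over libraries that share the split into AΦ and monocytes.

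Bhlhe40 and the summed non-classical monocyte markers gave r = 0.87 in TR-AΦ of 4-weeks (rho 0.89, 0.88 without the 2 farthest libraries, n = 6), where Pparg gave r = -0.38 (rho -0.54, 0.37 without 2). Over the 12 AΦ libraries of 32-weeks Bhlhe40 gave r = 0.48 (rho 0.27, 0.21 without 2). Bhlhe41 and the summed AΦ markers gave r = 0.81 in TR-AΦ of 4-weeks (rho 0.77, 0.71 without 2), 0.61 in AΦ of 32-weeks (rho 0.55, 0.47 without 2) and -0.85 in monocytes of 4-weeks (rho -0.83, 0.14 without 2).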
